A study of Homo sapiens with 36 samples.

Results

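Immediate early genes and the genes of ERK feedback were followed across total RNA and the low and high translating fractions of 4 MDA-MB-231 lines. The set holds 38 genes, taken as a list of symbols and chosen with earlier results of these data known. All 38 were among the 26485 symbols of the count files. They comprise 7 AP-1 subunits, 9 other transcription factors, 7 immediate early response genes, 4 MAPK phosphatases, 3 Sprouty and Spred inhibitors, 3 proteins that bind AU-rich elements, 3 EGFR ligands and 2 matricellular proteins.

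Immediate early genes are transcribed within minutes of a growth factor or stress signal, before any new protein has to be made, through factors such as SRF, the ETS proteins and CREB that are already present. Their mRNAs are mostly short-lived, since AU-rich elements recruit decay factors, and a block of translation is known to raise many of them. The products include the AP-1 subunits and EGR factors, the EGFR ligands that feed the signal forward, and the DUSP phosphatases, Sprouty and Spred proteins that switch ERK off. MDA-MB-231 is a triple-negative breast cancer line.

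All 4 lines carried a CRISPR interference construct and an overexpression construct. Control cells had guides against eGFP and a control overexpression construct. UAU cells had guides against eGFP and overexpressed the isoleucine tRNA with the UAU anticodon. GAUi cells had CRISPR interference against the isoleucine tRNA that carries anticodon GAU, with the control construct, and isoswitch cells had both changes. Cells were grown in medium with serum, and the labels call the source a xenograft cell line and do not say whether a line was 1 clone. tRNA is not read by these libraries, so the level of the targeted tRNAs was not checked. Every sample was given 100 ug/mL cycloheximide, an inhibitor of elongation, for 5 minutes, and no library without the drug was analysed here. Total RNA, a low translating and a high translating fraction of the polysome gradient were sequenced with a 3′ end kit, with 3 replicates (A, B and C) per line and fraction, 36 libraries in all. Nothing in the labels ties the replicates to separate cultures. The p-values therefore describe the spread between these libraries, which may be technical.

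Total RNA libraries held 6679340 to 8973050 counts, low fraction libraries 5310594 to 8234332, and high fraction libraries 5192464 to 8974001. A pair of libraries stood apart from their replicates. The chi-square of replicate counts, per degree of freedom, was 23.84 and 12.82 for the pairs that include GAUi total RNA A, against 8.527 for the other pair. Pairs with control low fraction B had 15.82 and 13.75, against 2.878. UAU low fraction A (9.294 and 6.942, against 3.472) and UAU high fraction C (9.006 and 5.351, against 2.485) stood apart to a lesser degree. Counts of called members, and calls of single genes that were lost, are also given without them. Pairs with isoswitch high fraction A had 6.3 and 4.172, against 2.544. The mesenchymal marker VIM, which encodes vimentin, lay between 2859 and 3391 CPM in total RNA of the 4 lines (group means). The luminal markers ESR1 and CDH1 stayed at or below 0.086 and 0.17 CPM there. The luminal keratins KRT18 and KRT19 were present at 252 to 337 and 158 to 191 CPM. Levels are in CPM, the counts scaled to library size with TMM factors over all 36 libraries. The kit counts 1 site per transcript, so they are not divided by gene length. Since each library is scaled to its own total, they show a gene's share of the RNA sequenced and not its amount, and in bulk RNA fewer cells with a transcript and less of it per cell cannot be told apart.

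The promoters of 28 of the 38 genes were found in RefSeq (GRCh38.p14), as 250 bases before to 50 after the start listed for that promoter. They were searched on both strands for sites of the factors that drive immediate early transcription. For ZFP36L1, EGR2, SRF, NR4A1, SPRY2 and SPRY4 the listed start lies inside the gene's RefSeq span. Their stretches are therefore not upstream of the whole gene. The CArG box bound by SRF was present in 2 of the 28, EGR1 and EGR2, or 7.14%, against 1.29% of 35116 promoters. The cyclic AMP response element TGACGTCA was present in 4 of 28 (14.3%), JUND, DUSP1, ZFP36L1 and AREG, against 1.85%. Matches to the AP-1 site TGANTCA, in FOSL2, and to the EGR site GCGNGGGCG, in EGR1, KLF4, KLF6, BTG2, SPRY4 and ZFP36L1, were found in 1 (3.57%) and 6 (21.4%) of the 28, against 7.71% and 9.43%. A match is a string of letters, not a measured site. Sites outside this window were not searched, so a gene without a match may hold one further away. FOSL1, EGR3, MYC, KLF10, IER3, MCL1, DUSP4, DUSP5, ZFP36L2 and CYR61 had no promoter entry. The 250 bases before the start are shown for EGR1 and for the 4 genes with the cyclic AMP response element, because EGR1, JUND, ZFP36L1 and AREG showed some of the clearest differences between fractions. Capitals mark the CArG boxes in EGR1 and the cyclic AMP response element in the other 4, while the EGR match in EGR1, 198 bases before its start, is left in lower case. Each sequence runs 5′ to 3′ along the gene's strand, and EGR1 holds 2 CArG boxes, 105 and 83 bases before its start.
EGR1, chr5:138465229-138465478, plus strand: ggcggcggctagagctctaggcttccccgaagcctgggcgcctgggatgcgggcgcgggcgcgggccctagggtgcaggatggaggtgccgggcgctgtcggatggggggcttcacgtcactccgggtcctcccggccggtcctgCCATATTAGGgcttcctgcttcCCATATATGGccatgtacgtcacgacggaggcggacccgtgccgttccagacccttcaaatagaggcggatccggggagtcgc
JUND, chr19:18281623-18281872, minus strand: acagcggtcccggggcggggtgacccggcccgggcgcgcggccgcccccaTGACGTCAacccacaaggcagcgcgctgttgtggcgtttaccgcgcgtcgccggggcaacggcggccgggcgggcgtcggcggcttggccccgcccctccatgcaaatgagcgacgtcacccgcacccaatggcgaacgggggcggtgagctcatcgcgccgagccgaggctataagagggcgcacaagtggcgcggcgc
DUSP1, chr5:172771196-172771445, minus strand: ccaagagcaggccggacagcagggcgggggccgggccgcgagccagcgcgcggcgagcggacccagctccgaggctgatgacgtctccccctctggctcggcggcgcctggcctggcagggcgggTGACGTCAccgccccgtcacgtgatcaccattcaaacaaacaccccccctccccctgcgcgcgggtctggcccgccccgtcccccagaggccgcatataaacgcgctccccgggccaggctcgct
ZFP36L1, chr14:68793417-68793666, minus strand: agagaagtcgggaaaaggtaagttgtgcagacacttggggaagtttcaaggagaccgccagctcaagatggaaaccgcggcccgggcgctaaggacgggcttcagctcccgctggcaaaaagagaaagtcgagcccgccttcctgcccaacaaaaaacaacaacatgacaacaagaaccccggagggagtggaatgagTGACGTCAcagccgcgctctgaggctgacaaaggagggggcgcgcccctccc
AREG, chr4:74444886-74445135, plus strand: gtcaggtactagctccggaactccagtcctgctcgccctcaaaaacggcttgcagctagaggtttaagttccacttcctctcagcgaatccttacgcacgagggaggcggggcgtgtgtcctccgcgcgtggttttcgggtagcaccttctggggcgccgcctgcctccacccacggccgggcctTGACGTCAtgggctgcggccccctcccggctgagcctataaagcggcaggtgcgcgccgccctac

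Classical members of the family were barely represented. BTG2, an antiproliferative deadenylation cofactor, had 6 counts over the 36 libraries, EGR3 17, EGR2 21 and the orphan nuclear receptor NR4A1 43, and none of these 4 was tested. FOS, the founding AP-1 subunit, had 0.952, 1.14 and 1.87 CPM in control total RNA, its relative FOSB 0.408, 0.999 and 0.8 CPM, and ZFP36, tristetraprolin, which directs AU-rich mRNAs to decay, 0.952, 1.43 and 0.533 CPM. FOSB was tested in the low and high fractions only, while FOS and ZFP36 were not tested between lines in the high fraction. The other members were tested throughout. In all, 33 genes were tested in total RNA, 34 in the low and 32 in the high fraction. The mRNA of IER3, an antiapoptotic immediate early protein, had 1585, 1655 and 1616 CPM in control total RNA, and that of PHLDA1, a pleckstrin homology protein of ERK feedback, 1113, 1094 and 1105 CPM.

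**Figure D1:**
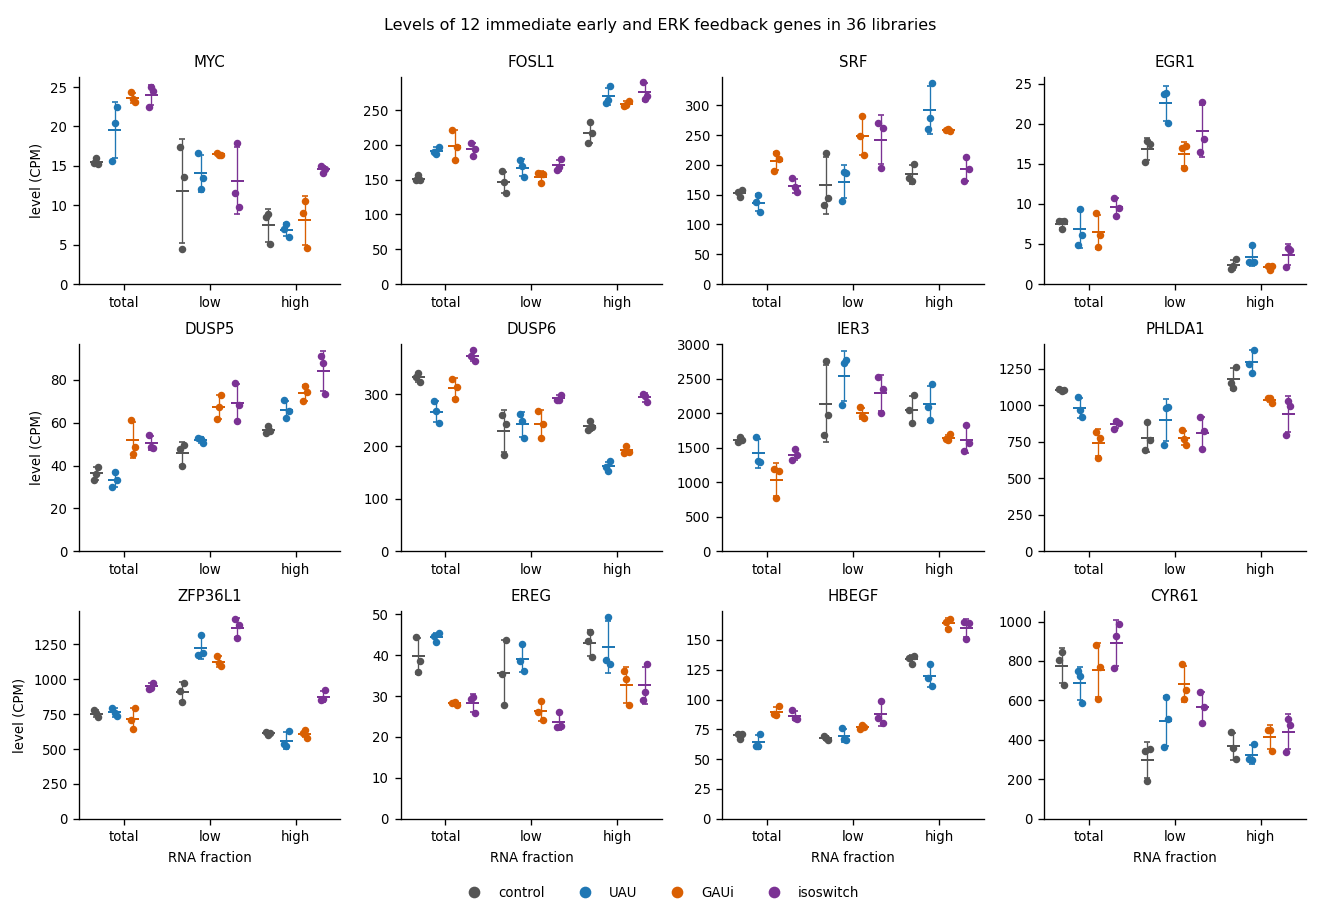
Level (CPM, linear axis from 0) of 12 members in total RNA and in the low and high fractions. Each point is 1 library, the bar is the mean of 3 and the whisker 1 SD. EGR1 is highest in the low fraction of every line, and in the control low fraction replicate B is the lowest library for MYC and the highest for SRF.

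The fractions were compared first within control cells. The question is which of these mRNAs had a larger share of the RNA in the high than in the low fraction. EGR1, JUND and ZFP36L1 had a larger share of the RNA in the low than in the high fraction, while the EGFR ligands HBEGF and AREG and the phosphatase DUSP4 had a larger share in the high fraction. Of 33 members tested, 8 were higher and 9 lower in the high than in the low fraction, or 51.5%, against 66% of the 12266 genes tested, 32.8% higher and 33.2% lower (edgeR quasi-likelihood test, adjusted p under 0.05 over all genes; these terms hold throughout). Values in parentheses after a gene are log2 fold changes. The members' median log2 fold change was 0.003. The share of members that differed was therefore not above that of all genes. For 67.1% of all genes the high and low libraries of control cells did not overlap.

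Among transcription factors, EGR1, a zinc finger activator, had 15.3, 17.8 and 17.5 CPM in the low and 1.83, 2.22 and 3.09 CPM in the high fraction of control cells, with 7.89, 6.85 and 7.87 CPM in total RNA. The 3 ranges were fully apart (high against low: log2 fold change -2.93, SE 0.204, adjusted p = 6.63e-09). The AP-1 subunit JUND had 112, 92.3 and 101 CPM in the low and 43.5, 44.9 and 49.9 CPM in the high fraction, again without overlap (-1.21, SE 0.111, adjusted p = 1.37e-07). KLF10, a TGF-beta inducible repressor, had 22, 14.4 and 18.7 CPM and 12.9, 10.4 and 10.7 CPM (-0.75, SE 0.179, adjusted p = 0.00168). Its lowest low-fraction library, B, was still above the highest high-fraction library. JUN fell less (-0.25, adjusted p = 0.0184), with overlapping libraries, and its call was lost without low control C or high control A and with no filter on low counts (adjusted p = 0.0573, adjusted p = 0.1 and adjusted p = 0.143). FOS was called lower from a few counts per library (-1.42, adjusted p = 0.0323). Without low control C its value was -0.77 (adjusted p = 0.281), and the call was also lost without high control A (adjusted p = 0.126) or C (adjusted p = 0.0753). FOSL1, encoding the AP-1 subunit FRA1, went the other way, from 162, 146 and 131 to 203, 233 and 217 CPM (0.50, SE 0.0914, adjusted p = 0.00018).

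The EGFR ligands HBEGF and AREG took a larger share of the high fraction. HBEGF had 69.7, 68 and 65.9 CPM in the low and 134, 129.7 and 137 CPM in the high fraction (0.91, SE 0.0805, adjusted p = 9.68e-08). AREG, amphiregulin, had 23.3, 20.3 and 25.4 CPM and 50.8, 57.4 and 47 CPM (1.10, SE 0.119, adjusted p = 8.61e-07). For both, every high-fraction library exceeded every low-fraction library. EREG, epiregulin, did not pass in control cells (0.20, with 35.4, 27.9 and 43.8 CPM in the low and 43.4, 45.7 and 39.4 CPM in the high fraction). DUSP4, a nuclear phosphatase of ERK, rose from 243, 254 and 268 to 453, 408 and 455 CPM (0.71, SE 0.0801, adjusted p = 1.34e-06), and MCL1, the short-lived antiapoptotic BCL2 relative, from 225, 201 and 223 to 377, 345 and 346 CPM (0.65, SE 0.0811, adjusted p = 4.14e-06). In both genes the 2 groups were apart. PHLDA1 (0.53), the Ras-ERK inhibitor SPRED1 (0.45) and ZFP36L2 (0.38) were also higher in the high fraction. The ZFP36L2 call was lost without low control B, the library that stood apart (0.17, adjusted p = 0.176), without high control A (adjusted p = 0.142) or B (adjusted p = 0.13), with the replicate block (adjusted p = 0.0507) and by DESeq2 (adjusted p = 0.0506).

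ZFP36L1, an AU-rich element binding protein that promotes decay, had 917, 837 and 972 CPM in the low and 624, 600.3 and 614 CPM in the high fraction (-0.64, SE 0.0785, adjusted p = 3.83e-06), with no overlap. BTG1, an antiproliferative relative of BTG2, fell by 0.45 on the log2 scale and the receptor kinase inhibitor SPRY4 by 0.47. ZFP36 itself was called lower, with 17, 1 and 20 counts in the 3 low-fraction and 5, 0 and 2 in the 3 high-fraction libraries. No fold is given from so few reads. Reads of SPRY4 and of the lncRNA SPRY4-IT1 overlap in the genome, as do those of JUNB and HOOK2, and since the strand used in counting is not given in the sources used here, they cannot be fully told apart. Without control low fraction B, 19 members were called in place of 17. Leaving out any other control library gave 14 to 17.

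Total RNA gave a second reference for the same cells. Against it, 8 of 33 members were higher and 11 lower in the high fraction (57.6%, against 51.5% of all genes, of which 24.4% higher and 27.1% lower), and 8 were higher and 10 lower in the low fraction (54.5%, against 62.4%, 29% higher and 33.3% lower). Higher in the high fraction were HBEGF, DUSP5, FOSL1, SPRY2, AREG, BTG1, SPRED1 and DUSP4, and lower EGR1, IER5, JUN, CYR61, KLF10, CTGF, DUSP6, ZFP36L1, DUSP1, MYC and MCL1. Higher in the low fraction were JUND, BTG1, EGR1, SPRY2, SPRY4, ZFP36L1, DUSP5 and IER3, and lower MCL1, IER5, CYR61, DUSP4, CTGF, AREG, PHLDA1, DUSP6, JUN and ZFP36L2. Of these, MCL1 in the high fraction rested on the settings used: its call was lost under all 5 other settings (adjusted p = 0.0535 to adjusted p = 0.0938) and in 4 of 6 fits without 1 library. DUSP4 in the high fraction was called in 2 of 6 such fits and SPRED1 in 5, without total control C not. In the low fraction ZFP36L2 was lost without low control B (-0.20, adjusted p = 0.124), total control A or total control B, and JUN without total control B. Without low control B, IER3 had 0.26 in place of 0.45 and DUSP6 -0.31 in place of -0.48, both still called. EGR1 was both higher in the low fraction than in total RNA (1.21, adjusted p = 1.56e-05) and lower in the high fraction (-1.72, adjusted p = 1.22e-05), and ZFP36L1 behaved likewise (0.32 and -0.31). CYR61, a matricellular integrin ligand and YAP target, had 803, 847 and 676 CPM in total RNA, 345, 190.3 and 353 CPM in the low and 439, 361 and 302 CPM in the high fraction. Both fractions were below total RNA (-1.34 and -1.09), and so it was for its relative CTGF (-1.01 and -0.84), IER5 (-0.90 and -0.80), DUSP6 (-0.48 and -0.49) and JUN (-0.26 and -0.51). DUSP5 and SPRY2 were above total RNA in both fractions (DUSP5 0.38 and 0.62, SPRY2 0.62 and 0.49). The 2 comparisons share the control total RNA libraries.

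The same comparison of fractions within each modified line called 8 members higher and 17 lower of 34 in UAU cells (73.5%, against 67% of all genes, 33.4% higher and 33.6% lower). In GAUi cells 8 were higher and 14 lower of 34 (64.7%, against 64.8%, 32.1% and 32.7%), and in isoswitch cells 12 and 14 of 33 (78.8%, against 70.5%, 35.2% and 35.3%). These comparisons share no library. The high and low libraries did not overlap for 68.4% of all genes in UAU, 73.1% in GAUi and 70.9% in isoswitch cells. In all 4 lines, 5 members were called higher in the high fraction, namely FOSL1, DUSP4, SPRED1, HBEGF and AREG, and 9 lower, namely FOS, JUN, JUND, EGR1, KLF10, BTG1, SPRY4, ZFP36 and ZFP36L1. That is 5 and 9 of the 33 members tested in all 4 lines, against 24.8% and 24.2% of the 11989 genes so tested. Of the genes named, FOSL1, DUSP4, HBEGF, AREG, JUND, EGR1, KLF10, BTG1 and ZFP36L1 kept their calls in every line with any 1 of its 6 libraries left out. The others did not: FOS and JUN lost theirs in control cells as given above, JUN in isoswitch cells without 3 single libraries (-0.12 without low isoswitch C) and with no filter (adjusted p = 0.12), and SPRED1 in GAUi cells without low B or high A. SPRY4 was kept in 1 of 6 fits in GAUi cells and in 5 of 6 in isoswitch cells (-0.27 without low isoswitch B), and ZFP36 in 2 of 6 in each of these lines. EGR1 had 23.7, 23.9 and 20.1 CPM in the low and 2.75, 4.85 and 2.72 CPM in the high fraction of UAU cells. In GAUi cells it had 17, 14.5 and 17.2 CPM in the low and 2.3, 1.72 and 2.29 CPM in the high fraction, and in isoswitch cells 16.5, 22.7 and 18.1 CPM and 2.17, 4.54 and 4.27 CPM. The 2 ranges were apart in every line. The log2 fold change of EGR1 was -2.93 in control, -2.73 in UAU, -2.94 in GAUi and -2.44 in isoswitch cells. AREG had 1.10, 0.87, 1.43 and 1.00 in the same order, and JUND -1.21, -0.92, -1.22 and -1.33. Both genes kept their direction with values of similar size.

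Other members were called in some lines and not in others. Beside the genes called in all lines, MCL1, PHLDA1 and ZFP36L2 were higher in control cells. In UAU cells SRF, PHLDA1 and DUSP5 were higher and DUSP6, JUNB, MYC, CYR61, SPRY2, DUSP1, CTGF and IER5 lower. In GAUi cells PHLDA1, MCL1 and EREG were higher and CYR61, MYC, DUSP6, DUSP1 and IER3 lower. In isoswitch cells MCL1, FOSL2, CTGF, ZFP36L2, EREG, IER2 and DUSP5 were higher and IER3, SPRY2, SRF, CYR61 and DUSP1 lower. In UAU cells DUSP1 was lost without low UAU A, which stood apart (-0.61, adjusted p = 0.0797), CTGF without low UAU B, and IER5 in 4 of 6 fits, though it was -0.45 without low UAU A. SPRY2 was called without high UAU C at -0.33 in place of -0.52. In GAUi cells IER3 was lost in 6 of 6 fits, MCL1 and EREG in 4, DUSP1 in 3 and DUSP6 without low GAUi A. In isoswitch cells DUSP5 was lost in 4 of 6 fits (0.15 without low B), DUSP1 in 3, IER2 without low B (0.15) and CYR61 without high A (-0.23). MYC, the growth-promoting transcription factor, was called lower in the high fraction of UAU (-1.0) and GAUi cells (-1.02), with -0.70 in control and 0.11 in isoswitch cells, neither of which passed. SRF, the factor that binds the CArG box, was called higher in UAU cells (0.80) and lower in isoswitch cells (-0.37), and had 0.09 in control and 0.05 in GAUi cells. JUNB, an AP-1 subunit, was called lower in UAU cells (-0.91) and had -0.13 in control cells. DUSP6, the cytoplasmic phosphatase of ERK, was called lower in UAU (-0.54) and GAUi cells (-0.33), with -0.01 in control and -0.03 in isoswitch cells.

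**Figure D2:**
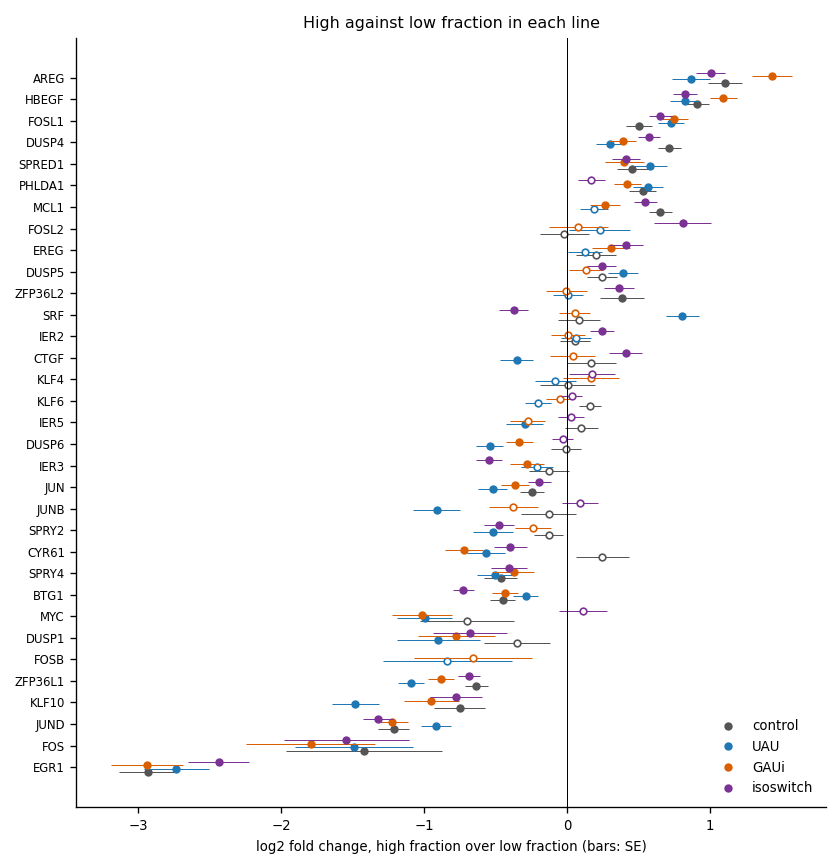
Log2 fold change of the high over the low fraction for each tested member except ZFP36, by line. Filled points passed the test, open points did not, and bars are the SE. EGR1 lies between -2.94 and -2.44 in the 4 lines and HBEGF between 0.82 and 1.09.

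Whether a line changed the high-to-low difference was tested directly, as the difference in that line minus the difference in control, over the 12 libraries of each comparison. No member passed for UAU, GAUi or isoswitch (0 of 34 each), where 1.83%, 0.152% and 0.00809% of all genes did (for UAU 1.09% higher and 0.745% lower, for GAUi 0.136% and 0.016%, for isoswitch 0.00809% and 0%). At an unadjusted p under 0.05 there were 13, 6 and 7 of the 34 members, against 17.4%, 12.2% and 10.9% of all genes. The lowest adjusted p among members was 0.0572, 0.0906 and 0.343. DESeq2 called 5, 1 and 0 members, against 8.51%, 5.54% and 0.0785% of the genes to which it gave an adjusted p. For UAU these were MCL1 (-0.48), DUSP6 (-0.55), ZFP36L1 (-0.47), SRF (0.71) and DUSP4 (-0.43), and for GAUi DUSP4 (-0.33). A fit of all 36 libraries called 8 for UAU, namely the same 5 with CYR61 (-0.89), KLF6 (-0.44) and JUNB (-0.86). With no filter on low counts CYR61 was called for UAU (-0.83, beside DUSP6, JUNB and SRF), GAUi (-0.97) and isoswitch (-0.65). The shares of all genes called under these 2 settings are not given here, so the counts cannot be set against them. Without control low fraction B, which stood apart, 5, 5 and 3 members passed for UAU, GAUi and isoswitch. The shares of all genes in fits with a library left out are not given here, and the cause was not tested. For UAU, 5 also passed without high UAU C and 1 without low control A or low UAU A.

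The lines were then compared within total RNA, where the question is which members changed in mRNA level. GAUi and isoswitch cells both had more MYC, FOSL1, DUSP5, HBEGF and CTGF mRNA and less PHLDA1 and EREG mRNA than control cells, by 1.25-fold to 1.56-fold. In GAUi cells 6 of 33 members rose and 4 fell (30.3%, against 10.1% of the 12357 genes tested, 4.38% higher and 5.72% lower), and in isoswitch cells 6 rose and 2 fell (24.2%, against 4.05%, 1.29% higher and 2.76% lower). UAU cells had 1 called member that was higher (3.03%, against 0.914%, 0.348% higher and 0.566% lower). The members' median log2 fold change was -0.014 in UAU, -0.019 in GAUi and 0.186 in isoswitch cells, against a median over all genes of 0.008, 0.003 and 0.008. All 3 comparisons share the control libraries. Libraries of the line and of control did not overlap for 26.1% of all genes in UAU, 26.1% in GAUi and 30.1% in isoswitch total RNA.

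MYC had 15.4, 16 and 15.2 CPM in control, 15.6, 20.4 and 22.5 in UAU, 24.3, 23.5 and 23.1 in GAUi and 22.5, 24.9 and 24.5 in isoswitch total RNA. Every GAUi and isoswitch library was above every control library (GAUi: log2 fold change 0.60, SE 0.131, adjusted p = 0.00628; isoswitch: 0.65, SE 0.131, adjusted p = 0.00701), while UAU A lay within the control range. FOSL1 had 149, 157 and 149 CPM in control, 190.1, 187 and 197 in UAU, 222, 178 and 197 in GAUi and 203, 184 and 194 in isoswitch cells, all above control (UAU: 0.36, adjusted p = 0.0481; GAUi: 0.39, adjusted p = 0.00669; isoswitch: 0.37, adjusted p = 0.0167). In UAU cells this was the only call, and it was lost with any of the 6 libraries left out (adjusted p = 0.103 to adjusted p = 0.205). SRF had 155, 146 and 157 CPM in control and 189, 220.0 and 211 in GAUi cells, a rise with no overlap (0.43, SE 0.0911, adjusted p = 0.00527), and 138, 149.8 and 121 in UAU and 178, 163 and 154 in isoswitch cells.

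Of the feedback genes, DUSP5, a nuclear ERK phosphatase induced by ERK itself, had 33.3, 36.2 and 39.3 CPM in control, 29.9, 37.1 and 33.4 in UAU, 61.2, 45.6 and 48.8 in GAUi and 54.3, 48.8 and 48.4 in isoswitch total RNA. The last 2 lines were fully above control (GAUi: 0.51, adjusted p = 0.01; isoswitch: 0.49, adjusted p = 0.0241). DUSP4 fell in GAUi cells, from 384, 382 and 358 to 307, 274 and 332 CPM (-0.30, adjusted p = 0.0234). PHLDA1 fell to 817, 639 and 777 CPM in GAUi (-0.57, SE 0.0818, adjusted p = 0.000259) and 839.7, 889.6 and 875 CPM in isoswitch cells (-0.33, adjusted p = 0.0267), with no library in the control range. IER3 fell in GAUi cells to 1186, 771 and 1164 CPM (-0.64, SE 0.12, adjusted p = 0.00219), below all control libraries. ZFP36L1 rose in isoswitch cells, from 776, 756 and 727 to 931, 940.4 and 975 CPM (0.35, SE 0.0745, adjusted p = 0.01).

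The EGFR ligands moved in opposite directions. HBEGF had 71.2, 67.2 and 71.3 CPM in control, 61.2, 61.3 and 70.9 in UAU, 88.2, 87.1 and 94.3 in GAUi and 91.3, 84.7 and 83.8 in isoswitch cells (GAUi: 0.36, adjusted p = 0.0133; isoswitch: 0.33, adjusted p = 0.0402). EREG had 44.5, 36 and 38.7 CPM in control, 44.7, 43.1 and 45.3 in UAU, 28.4, 28.6 and 27.9 in GAUi and 29.2, 29.8 and 25.8 in isoswitch cells (GAUi: -0.49, adjusted p = 0.00532; isoswitch: -0.47, adjusted p = 0.013). In both lines HBEGF lay above and EREG below the control range, while AREG had 41.8, 39.8 and 32.6 CPM in GAUi and 32.3, 33.9 and 33.7 CPM in isoswitch cells against 41, 34.7 and 38.5 CPM in control and passed in neither. CTGF rose from 109, 102 and 83.3 CPM in control to 179, 129.7 and 119.8 CPM in GAUi (0.54, adjusted p = 0.0153, and 0.35 without GAUi A) and 124, 149.6 and 152 CPM in isoswitch cells (0.55, adjusted p = 0.0259). Without GAUi A, the library that stood apart, 12 members were called in GAUi cells, and FOSL1, PHLDA1, EREG, IER3, SRF and MYC were called with any 1 of the 6 libraries left out. In isoswitch cells only MYC was. The isoswitch count was 3 without control A, 4 without B, 3 without C, 4 without isoswitch A, 4 without B and 1 without C. It was 17 in a fit of the control and isoswitch libraries alone, and such a fit called 3 in GAUi and 5 in UAU cells. The shares of all genes in these fits are not given here, so the counts cannot be set against them.

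In the low fraction, ZFP36L1, MCL1, CYR61 and DUSP5 were higher in modified lines. Of 34 members, 2 rose and 1 fell in UAU cells (8.82%, against 0.691% of the 12445 genes tested, 0.329% higher and 0.362% lower), 3 rose in GAUi cells (8.82%, against 3.4%, 1.27% and 2.13%), and 5 rose and 2 fell in isoswitch cells (20.6%, against 2.58%, 0.964% and 1.62%). The member medians were 0.184, 0.093 and 0.191. The 3 lines share the control libraries of this fraction. Libraries of the line and of control did not overlap for 16.4% of all genes in UAU, 23.2% in GAUi and 18.2% in isoswitch cells. MCL1 had 225, 201 and 223 CPM in control, 277, 334 and 318 in UAU, 344, 320.0 and 301 in GAUi and 325, 266 and 312 in isoswitch cells. It was above all control libraries in each line (UAU: 0.49, adjusted p = 0.0337; GAUi: 0.54, adjusted p = 0.00404; isoswitch: 0.45, adjusted p = 0.0168). ZFP36L1 had 917, 837 and 972 CPM in control, 1172, 1319 and 1191 in UAU, 1169, 1117 and 1095 in GAUi and 1429, 1293 and 1386 in isoswitch cells, every one of the latter 9 above control (called in UAU: 0.41, adjusted p = 0.0437; isoswitch: 0.57, SE 0.0893, adjusted p = 0.00143). CYR61 had 345, 190.3 and 353 CPM in control, 362, 615 and 508 in UAU, 786, 608 and 655 in GAUi and 642, 484 and 568 in isoswitch cells. Control B, the library that stood apart, was the lowest, and the GAUi and isoswitch libraries were above all 3 controls (GAUi: 1.17, SE 0.199, adjusted p = 0.00224; isoswitch: 0.91, adjusted p = 0.0165).

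DUSP5 had 47.6, 39.8 and 49.8 CPM in control, 61.7, 67.1 and 73 in GAUi (0.53, adjusted p = 0.0171) and 78.7, 60.7 and 68 in isoswitch low fractions (0.57, adjusted p = 0.012), with no overlap. FOSL2, encoding the AP-1 subunit FRA2, fell from 14, 11.2 and 12.2 CPM to 7.53, 6.48 and 8.22 CPM in UAU (-0.78, adjusted p = 0.0499) and 6.32, 8.31 and 7.11 CPM in isoswitch cells (-0.81, adjusted p = 0.0174). EREG fell in isoswitch cells, from 35.4, 27.9 and 43.8 to 22.4, 26.2 and 22.7 CPM (-0.61, adjusted p = 0.0303), and JUN rose from 147, 165 and 163 to 204, 191 and 226 CPM (0.36, adjusted p = 0.0487). Each of these groups was apart from control. Without UAU A, FOSL2 in UAU cells was -0.80 (adjusted p = 0.0827). Without control B the counts were 5 for UAU, 7 for GAUi and 9 for isoswitch. The UAU count was 3 without UAU A and 0 without control A, control C, UAU B or UAU C, GAUi's was 2 without GAUi B or C, and the isoswitch count was 4 without control A or C, 1 without isoswitch A and 2 without isoswitch C. CYR61 and MCL1 in GAUi and ZFP36L1 in isoswitch cells were called whichever library was left out.

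**Figure D3:**
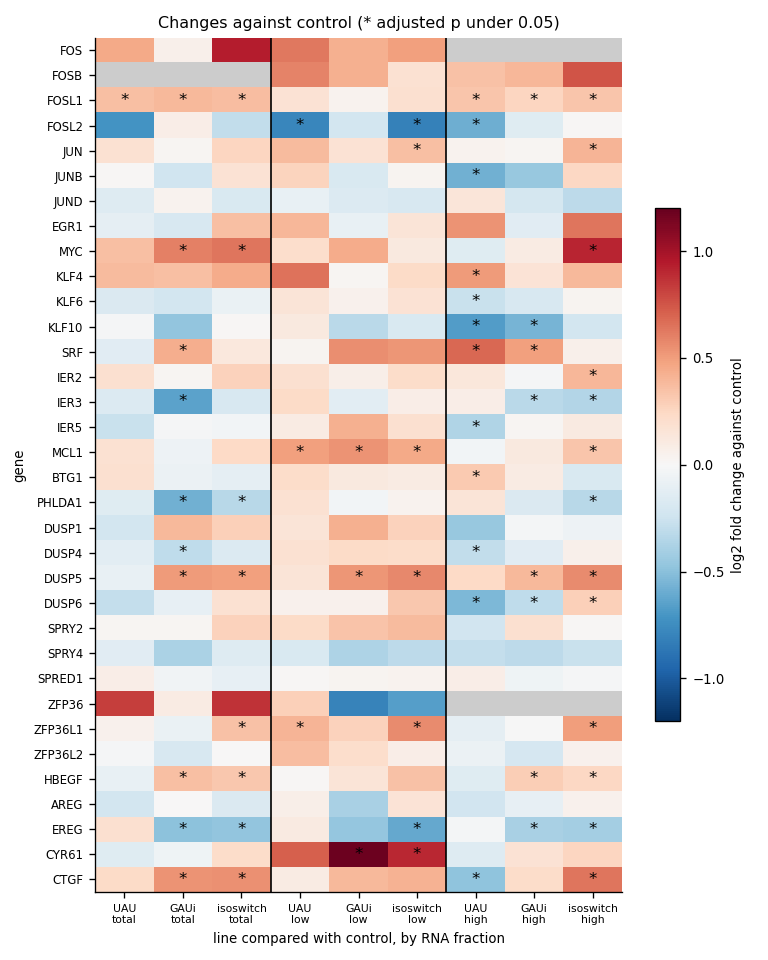
Log2 fold change against control for the 34 tested members, by line and RNA fraction. Colour runs from blue (lower) to red (higher), grey marks a gene that was not tested, and an asterisk marks an adjusted p under 0.05. FOSL1 and DUSP5 each carry 6 asterisks over the 9 comparisons, all in red. The lines of a fraction share its control libraries, so these asterisks are not independent of each other.

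In the high fraction, the question is how each line changed the share that these mRNAs had of the RNA in that fraction. That share also depends on a gene's level in total RNA. The test of the high-to-low difference, given above, called no member in any line. Most calls in UAU cells were lower and most in isoswitch cells higher. FOSL1 was called higher in both lines, and DUSP6 and CTGF were called lower in UAU and higher in isoswitch cells. Of 32 members, 4 rose and 8 fell in UAU cells (37.5%, against 28.7% of the 11979 genes tested, 13.1% higher and 15.5% lower), 4 rose and 4 fell in GAUi cells (25%, against 10.1%, 4.66% and 5.48%), and 10 rose and 3 fell in isoswitch cells (40.6%, against 11%, 3.67% and 7.36%). The member medians were -0.088, -0.018 and 0.087. The 3 lines share the control libraries of this fraction. Libraries of the line and of control did not overlap for 39.1% of all genes in UAU, 31.4% in GAUi and 29.7% in isoswitch cells. In UAU cells SRF, FOSL1, BTG1 and KLF4 rose, and DUSP6, KLF10, DUSP4, JUNB, IER5, CTGF, KLF6 and FOSL2 fell. In isoswitch cells ZFP36L1, DUSP5, CTGF, MYC, JUN, FOSL1, IER2, DUSP6, MCL1 and HBEGF rose, and PHLDA1, IER3 and EREG fell. In GAUi cells SRF, DUSP5, HBEGF and FOSL1 rose, and DUSP6, IER3, KLF10 and EREG fell.

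DUSP6 had 231, 248 and 237 CPM in control, 161, 154 and 172 in UAU, 187, 201 and 190.1 in GAUi and 301, 296 and 284 in isoswitch high fractions. The 4 lines did not overlap: UAU was lowest (-0.54, SE 0.0775, adjusted p = 1.6e-05), then GAUi (-0.31, adjusted p = 0.0114), and isoswitch was above control (0.29, adjusted p = 0.0133). SRF had 177, 173 and 202 CPM in control, 260.2, 279 and 337 in UAU, 258, 261 and 257 in GAUi and 173, 213 and 193 in isoswitch cells. UAU (0.69, SE 0.0956, adjusted p = 1.15e-05) and GAUi (0.49, SE 0.0957, adjusted p = 0.00136) were above control, and isoswitch overlapped it (0.06, not called). DUSP5 had 55.3, 58.4 and 56.3 CPM in control, 70.5, 62.2 and 65.2 in UAU, 70.2, 77.2 and 74.1 in GAUi and 91, 87.7 and 73.5 in isoswitch cells (GAUi: 0.39, adjusted p = 0.0101; isoswitch: 0.56, SE 0.0945, adjusted p = 0.000214). DUSP4 fell in UAU cells, from 453, 408 and 455 to 340.1, 330.1 and 388 CPM (-0.29, adjusted p = 0.00783), without overlap.

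Among AP-1 subunits, FOSL1 had 203, 233 and 217 CPM in control, 259.9, 265 and 284 in UAU, 256, 258 and 263 in GAUi and 290.2, 266 and 271 in isoswitch cells. All 3 lines were above control (UAU: 0.33, adjusted p = 0.00232; GAUi: 0.26, adjusted p = 0.0358; isoswitch: 0.33, adjusted p = 0.00549). JUN was higher in isoswitch cells, at 194, 181 and 184 CPM against 130.0, 148 and 142 CPM in control (0.40, SE 0.0918, adjusted p = 0.00423), while UAU and GAUi cells overlapped control. JUNB was lower in UAU cells, at 9.33, 8.88 and 11.8 CPM against 13, 16.9 and 16.4 CPM (-0.58, adjusted p = 0.00856). Of the other factors, MYC had 8.45, 8.87 and 5.08 CPM in control, 7, 7.67 and 5.99 in UAU, 9.04, 10.6 and 4.59 in GAUi and 14.9, 14.1 and 14.6 in isoswitch cells, where alone it was above all control libraries (0.92, SE 0.208, adjusted p = 0.00418). KLF10 fell from 12.9, 10.4 and 10.7 CPM to 8.1, 4.85 and 7.76 CPM in UAU (-0.67, adjusted p = 0.00629) and 8.58, 7.01 and 7.7 CPM in GAUi cells (-0.56, adjusted p = 0.0429).

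ZFP36L1 had 624, 600.3 and 614 CPM in control and 849, 856 and 920.4 CPM in isoswitch high fractions, the smallest p among members in that line (0.50, SE 0.08, adjusted p = 0.000106), with 533, 520.1 and 628 CPM in UAU and 618, 635 and 580.3 CPM in GAUi cells. It was thus higher in isoswitch cells in total RNA and in both fractions, with no overlap in any of the 3. CTGF had 62.6, 61.5 and 40.5 CPM in control, 36.4, 44.6 and 37.2 in UAU and 85.7, 78.9 and 96.4 in isoswitch cells. It was higher in isoswitch (0.64, SE 0.13, adjusted p = 0.00158), and was called lower in UAU cells although its libraries overlapped control (-0.48, adjusted p = 0.0101). HBEGF rose to 165, 159.5 and 168 CPM in GAUi (0.30, adjusted p = 0.0175) and 165, 151 and 164 CPM in isoswitch cells (0.25, adjusted p = 0.0428) from 134, 129.7 and 137 CPM, and EREG fell to 36.1, 34.2 and 27.7 (-0.39, adjusted p = 0.0432) and 29.1, 31 and 37.7 CPM (-0.41, adjusted p = 0.0305) from 43.4, 45.7 and 39.4 CPM. Neither gene overlapped control in those lines.

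Of the response genes, IER2 rose in isoswitch cells, from 159.8, 187 and 191 to 249.5, 229 and 235 CPM (0.40, adjusted p = 0.00771), and BTG1 in UAU cells, from 281, 271 and 311 to 376, 349 and 333 CPM (0.31, adjusted p = 0.00431). IER5 fell in UAU cells, from 113, 119 and 123 to 82.5, 79.6 and 109 CPM (-0.36, adjusted p = 0.00937). IER3 had 2044, 1856 and 2260.0 CPM in control, 1624, 1612 and 1693 CPM in GAUi (-0.32, adjusted p = 0.0285) and 1451, 1828 and 1571 CPM in isoswitch cells (-0.35, adjusted p = 0.0134), and PHLDA1 fell in isoswitch cells, from 1149, 1118 and 1260.0 to 798, 1028 and 991 CPM (-0.33, adjusted p = 0.012). These 5 genes did not overlap control in the lines named. MCL1 (0.34) rose in isoswitch cells, and KLF4 (0.51), KLF6 (-0.27) and FOSL2 (-0.58, overlapping control) were called in UAU cells.

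Calls that held with any 1 of the 6 libraries left out were FOSL1, DUSP6, BTG1 and SRF in UAU, SRF alone in GAUi, and JUN, DUSP5, FOSL1, ZFP36L1, CTGF and MYC in isoswitch cells. The GAUi count was 3 without control A, 4 without B, 5 without C, 2 without GAUi A, 4 without B and 2 without C. The UAU count of 12 became 8 without control A, control B, UAU A or UAU B. The isoswitch count of 13 became 8 without isoswitch A, where PHLDA1, DUSP6, EREG, HBEGF and IER3 lost their calls. Without UAU C, the library that stood apart, 13 members were called in UAU cells. The summed level of 10 luminal breast markers also moved in this fraction, from 409.1 to 435.3 CPM in control to 251.8 to 353.9 CPM in UAU, 348.7 to 383.3 CPM in GAUi and 452.5 to 513.9 CPM in isoswitch cells. That of 10 basal and mesenchymal markers was 3999 to 4520 CPM in control, 3875 to 3925 CPM in UAU and 3628 to 3739 CPM in GAUi cells, both below control, and 4028 to 4554 CPM in isoswitch cells. In total RNA the luminal sum was 522.3 to 546.7 CPM in control, 479 to 506.3 CPM in UAU, 569.1 to 627.4 CPM in GAUi and 552 to 568.3 CPM in isoswitch cells, and the basal sum 5567 to 5891 CPM in control and 5760 to 6722 CPM over the other lines, with UAU (5908 to 6722 CPM) wholly above control. In the low fraction the ranges of both sums overlapped control in every line. In total RNA KRT18 and KRT19 made up most of the luminal sum, and VIM a large part of the basal sum. The part of these sums in the members' changes was not tested.

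**Figure D4:**
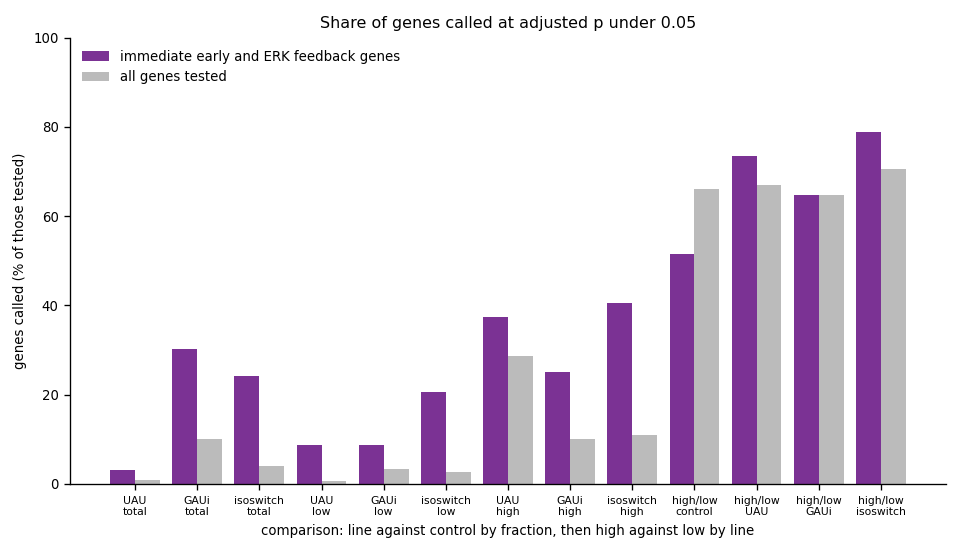
Share of tested genes called at an adjusted p under 0.05, for the members and for all genes, in the 9 comparisons of a line with control and the 4 comparisons of high with low fraction. Bars start at 0. In isoswitch total RNA 24.2% of members and 4.05% of all genes were called, while between fractions of control cells the members' share (51.5%) was below that of all genes (66%).

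Counting over the 9 comparisons of a line with control, 23 of the 34 tested members were called at least once and 11 were not. Of all 12792 genes tested, 39.9% were called at least once. FOSL1 and DUSP5 were called in 6 each, always higher, and EREG in 5, always lower. MCL1, HBEGF and ZFP36L1 were called in 4 each, always higher, and CTGF in 4, lower only in the high fraction of UAU cells. The 11 without a call were FOS, FOSB, JUND, EGR1, DUSP1, SPRY2, SPRY4, SPRED1, ZFP36, ZFP36L2 and AREG. They had 15 of 90 comparisons at an unadjusted p under 0.05, against 10.9% of those of all genes without a call, a lowest adjusted p = 0.0579, and no call by DESeq2. SPRY4 had 6 of these 15, all 9 of its values lying between -0.38 and -0.13. SPRED1 had none, with values between -0.10 and 0.08, and DUSP1, a stress-induced MAPK phosphatase, had none, with values between -0.45 and 0.43.

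The last question was whether the effect of UAU overexpression was the same in control and in GAUi cells, that is, whether the 2 tRNA changes added up on the log scale. In the high fraction they did not for 15 of 32 members, 12 with a positive and 3 with a negative interaction (46.9%, against 35.7% of all genes, 18.1% positive and 17.6% negative). The interaction is the UAU effect in GAUi cells minus the UAU effect in control cells. For DUSP6 the UAU effect on the log2 scale was -0.54 in control and 0.60 in GAUi cells (interaction 1.13, SE 0.109, adjusted p = 8.95e-08). For SRF it was 0.69 in control and -0.44 in GAUi cells (-1.12, SE 0.135, adjusted p = 8.18e-07). JUNB had -0.58 and 0.70 (1.28, SE 0.225, adjusted p = 7.72e-05), KLF10 -0.67 and 0.34 (1.01, adjusted p = 0.00299) and MYC -0.15 and 0.82 (0.97, adjusted p = 0.0175). In all 5 the estimated UAU effect had opposite signs in the 2 backgrounds. The effect in control cells is the comparison of UAU with control given above, which called all of these but MYC, and the effect in GAUi cells was not tested by itself.

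For ZFP36L1 the UAU effect was -0.11 in control and 0.51 in GAUi cells (0.61, adjusted p = 0.000129), and its level was above control in the line with both changes. BTG1 ran from 0.31 to -0.29 (-0.60, adjusted p = 0.000174), CTGF from -0.48 to 0.42 (0.90, adjusted p = 0.000527), DUSP4 from -0.30 to 0.20 (0.49, adjusted p = 0.00141) and KLF6 from -0.27 to 0.22 (0.49, adjusted p = 0.00202). KLF6, DUSP6, BTG1, ZFP36L1, JUNB, SRF, CTGF, DUSP4 and KLF10 were called with any 1 of the 12 libraries left out, and 10 to 15 members were called in those fits, 10 without control B or GAUi C. Of these 12 fits, MYC was called in 9, IER5 in 8, AREG in 5, JUN and FOSL2 in 4 each and PHLDA1 in 3. Without isoswitch A the value was -0.21 for PHLDA1 and 0.47 for FOSL2, and without UAU C, the library that stood apart, PHLDA1 (adjusted p = 0.0737) and AREG (adjusted p = 0.0545) lost theirs. EREG, the ligand that was lower in both GAUi and isoswitch cells, had an interaction of 0.00, and DUSP5 one of -0.07, neither of which passed.

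In total RNA and in the low fraction no member passed this test (0 of 33, against 0.0243% of all genes, 0.0162% positive and 0.00809% negative, and 0 of 34, against 0.233%, 0.145% and 0.0884%). At an unadjusted p under 0.05 there were 10 of 33 and 3 of 34 members, against 10% and 11.8% of all genes. DESeq2 called 1 in each, against 0.525% and 4.17% of the genes to which it gave an adjusted p. Without total GAUi A, the library that stood apart, 3 members passed in total RNA, and 1 passed without GAUi B. In the low fraction 1 passed without UAU A. Whether the interactions differ between fractions was not tested.

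**Figure D5:**
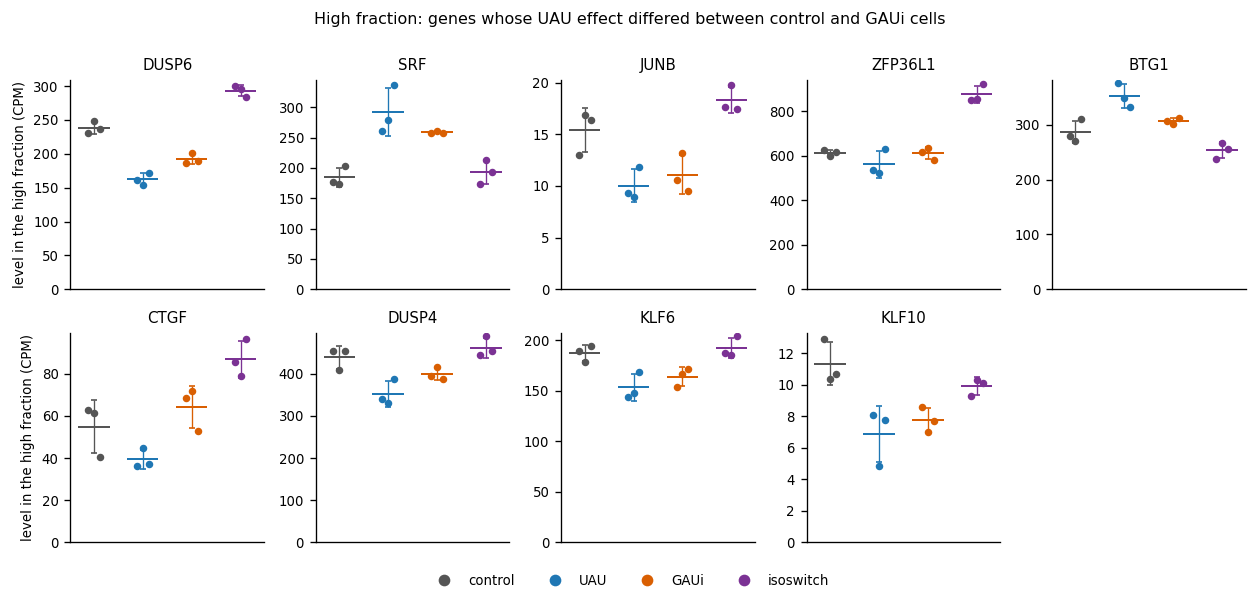
High fraction level (CPM, linear axis from 0) of the 9 members whose interaction was called with any library left out. Points are libraries, bars means of 3 and whiskers 1 SD, in the order control, UAU, GAUi and isoswitch. DUSP6 falls to 153.9 to 171.7 CPM in UAU and reaches 283.9 to 300.7 CPM in isoswitch cells.

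Genes that act around the members were taken from other lists. Like the members, these were chosen with earlier results of these data known. Their counts are to be read against all genes, of which 0.348% were higher and 0.566% lower in UAU, 4.38% and 5.72% in GAUi and 1.29% and 2.76% in isoswitch total RNA. Of 31 mRNAs for ERK pathway components, 2 rose in UAU, 1 in GAUi and 1 in isoswitch total RNA, with none lower. ETS1, an ERK-activated transcription factor, rose in isoswitch total RNA (0.64, adjusted p = 0.000104) and in the high fraction (0.83, adjusted p = 2.66e-06), and in GAUi total RNA (0.33, adjusted p = 0.0141). In UAU cells ELK3 (0.40) and the kinase gene MAP2K1 (0.57) rose. Of 23 further ERK output genes, 3 rose and 3 fell in GAUi and 1 rose and 2 fell in isoswitch total RNA. ETV1, an ETS factor often used as a readout of ERK, fell in GAUi (-0.84, adjusted p = 3.96e-06) and isoswitch total RNA (-0.83, adjusted p = 5.07e-06), and in the high fraction of both (GAUi -1.07, isoswitch -0.71). UPP1 fell in both as well (-0.57 and -0.61). So within ERK outputs DUSP5 and FOSL1 were higher while ETV1 was lower in the same libraries.

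Targets of SRF and YAP outside the members had 9 of 20 higher and 0 lower in GAUi total RNA (median 0.25), 5 and 0 in isoswitch total RNA, and 10 and 0 in the isoswitch high fraction, against 3 higher and 5 lower in the UAU high fraction. In these high fractions 3.67% of all genes were higher and 7.36% lower in isoswitch, and 13.1% and 15.5% in UAU cells. Cytoplasmic actin ACTG1 rose in GAUi (0.67, adjusted p = 1.55e-05) and isoswitch total RNA (0.60, adjusted p = 7.29e-05) and the isoswitch high fraction (0.73, adjusted p = 4.88e-05), and the LIM protein FHL2 likewise (0.69, 0.57 and 0.72). ANKRD1, a YAP target, fell in the UAU high fraction (-0.94, adjusted p = 1.74e-07). Of 32 other immediate early genes, 4 rose and 5 fell in GAUi and 1 rose and 5 fell in isoswitch total RNA. NFKBIA, the inhibitor of NF-kappaB, fell in both (-0.63, adjusted p = 0.000167 and -0.70, adjusted p = 7.19e-05), as did IER5L (-1.11 and -0.71), while GADD45B rose in the GAUi high fraction (0.71, adjusted p = 1.34e-06). Among 26 genes of AU-rich element binding and deadenylation, 1 rose and 0 fell in each of GAUi and isoswitch total RNA, ELAVL1 in the first (0.45, adjusted p = 0.0198) and HNRNPD in the second (0.25, adjusted p = 0.0472). In UAU total RNA 0 of 26 were called. Kinases of the ribotoxic stress response had 1 of 11 higher in GAUi total RNA, ZAK (0.29, adjusted p = 0.0351), and 2 higher and 2 lower in the UAU high fraction.

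Between fractions of control cells, the other immediate early genes went both ways. NFKBIZ, an inducible NF-kappaB cofactor, was lower in the high fraction (-3.81, adjusted p = 6.02e-11), as were CCNL1 (-2.27, adjusted p = 1.36e-10) and PPP1R15A, the stress-induced phosphatase subunit (-1.32, adjusted p = 1.65e-09). Of 31 tested, 9 were higher and 8 lower, against 32.8% and 33.2% of all genes. PABPC1, the poly(A) binding protein, had a log2 fold change of -4.01 (adjusted p = 4.25e-11). SRF and YAP targets had 13 of 20 higher and 4 lower, among them ACTB (1.63).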

How the data were processed

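The authors deposited raw counts per gene symbol, not normalized, for each of 36 QuantSeq 3′ libraries. STAR, featureCounts, DESeq2 and hg38 appear in the submitters' processing notes. Their versions, the annotation and the strand setting were not given in the sources used here. Groups come from the titles and construct labels.

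Genes were kept by filterByExpr on the groups (minimum count 10), scaled by TMM and tested by edgeR's quasi-likelihood test (edgeR 4.0.16, limma 3.58.1, R 4.3.3). Benjamini-Hochberg adjustment ran over all genes tested. A call is an adjusted p under 0.05 without a minimum fold. Each SE was obtained from the log2 fold change and its F statistic (size over square root of F). Lines were compared in 1 fit of the 12 libraries of a fraction, fractions in 1 fit of the 9 libraries of a line, and the change of the high-to-low difference in the 12 libraries of its 2 lines. Levels in CPM used TMM factors over all 36 libraries and are single libraries or mean ± SD. The scripts were tested on simulated counts. Every test rests on the spread of replicate libraries, since counting error alone is too small.

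The 38 members and the lists of other genes were chosen with earlier results of these data known. All called members are named. Values per library are given for up to 8 called members per comparison by smallest p, and for some others that the text compares across lines, and up to 4 called genes of each other list are named. Gene positions and promoters are from RefSeq (GRCh38.p14), where CYR61 and CTGF carry the symbols CCN1 and CCN2. Alternatives were RLE size factors, no filter on low counts, the replicate letter as a block, DESeq2 1.42.0, fits on fewer or more libraries, and leaving out each library. The letters do not pair the samples: of 12 pairs of fractions within a line and 18 pairs of lines within a fraction, 0 had all letters correlated above 0.1.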

Additional observations from a re-analysis of the deposited data

Results flagged for a closer look

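In the high fraction, the effect of UAU overexpression differed between control and GAUi cells for 15 members by the test of the interaction itself (edgeR quasi-likelihood test, Benjamini-Hochberg adjustment over 11979 genes, 3 libraries per line). It was positive, that is, the UAU effect was higher in GAUi than in control cells, for JUNB (1.28), DUSP6 (1.13), KLF10 (1.01), MYC (0.97), CTGF (0.90), FOSL2 (0.74), ZFP36L1 (0.61), DUSP4 (0.49), KLF6 (0.49), IER5 (0.45), AREG (0.38) and JUN (0.34). It was negative for SRF (-1.12), BTG1 (-0.60) and PHLDA1 (-0.31). The adjusted p ran from 8.95e-08 for DUSP6 to 0.0469 for FOSL2. In the same test 35.7% of all genes passed. UAU replicate C in the high fraction stood apart from UAU A and B (chi-square per degree of freedom 9.006 in its most distant pair, against 2.485 for the closest pair). Without it 15 members were called, 13 of them among those named here. PHLDA1 (adjusted p = 0.0737) and AREG (adjusted p = 0.0545) lost their calls. Of the 12 fits that each left out 1 library, PHLDA1 was called in 3, JUN and FOSL2 in 4 each, AREG in 5, IER5 in 8 and MYC in 9. The other 9 members were called in every such fit. FOSL2 was not called by DESeq2 (adjusted p = 0.0536), nor AREG with no filter on low counts (adjusted p = 0.0697).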

How the results depend on the processing

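The counts of called members that moved by over 1.5 times under another setting were these. For UAU against control in total RNA (1 called), the count was 2 with no filter on low counts, 0 with the replicate block, 2 by DESeq2, 5 on the 6 libraries compared alone, and 0 with any library left out. For GAUi in total RNA (10) it was 3 on the 6 libraries alone, and 8 to 12 with a library left out. For isoswitch in total RNA (8) it was 17 on the 6 libraries alone, and 1 to 4 with a library left out. In the low fraction, UAU (3) gave 6 with no filter, 0 with the replicate block, 0 on the 6 libraries alone and 0 to 5 with a library left out. GAUi (3) gave 6 with no filter, 5 by DESeq2 and 2 to 7 with a library left out, and isoswitch (7) gave 1 on the 6 libraries alone and 1 to 9 with a library left out. In the high fraction, leaving out a library gave 8 to 13 for UAU (12), 2 to 5 for GAUi (8) and 8 to 13 for isoswitch (13). For the change of the high-to-low difference, where 0 passed, UAU gave 4 with no filter, 5 by DESeq2, 8 in a fit of all 36 libraries and 0 to 5 with a library left out. GAUi gave 1 with no filter, 1 by DESeq2 and 0 to 5, and isoswitch gave 1 with no filter and 0 to 3. The interaction in total RNA (0) gave 2 with no filter, 1 by DESeq2 and 0 to 3 with a library left out, and that in the low fraction (0) gave 2, 1 and 0 to 1. Apart from the DESeq2 shares given above, the shares of all genes called under these settings are not given here. Without them these counts, here and above, cannot be set against all genes. The cause of these moves was not tested.

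The replicate block moved no other count by over 1.5 times (12 in place of 13 for isoswitch in the high fraction and 17 in place of 19 for high fraction against total RNA, for example), and correlations of deviations between samples of the same letter ran from -0.513 to 0.347. Of 1332 values of called members with a library left out, 1080 kept their direction and call, 252 kept their direction only and 0 reversed. RLE size factors kept 205 of 207 calls and DESeq2 200, with 0 reversed. With RLE size factors the share of called genes that were higher in the change of the high-to-low difference of UAU cells was 73.3%, in place of 59.3%. Members at a few counts per library, such as FOS and ZFP36, are limited by depth.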
